A study of Homo sapiens with 6 samples.

Results

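The genes described here are 9 retinoid metabolism and binding genes, STRA6, LRAT, RDH10, RDH11, DHRS9, DHRS3, ALDH1A2, CRABP1 and CRABP2. They were chosen by gene symbol, out of 46 retinoid pathway genes that were looked up and 81496 gene symbols on the array. Each of the 9 symbols is carried by 1 probe set, so no choice between probe sets was needed. The arrays compared MCF10.AT1 with MCF10.AT1-R, the line derived from it that is resistant to fluvastatin, a statin that blocks HMG-CoA reductase.

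Retinol circulates bound to RBP4 and enters cells through STRA6, and LRAT stores it as retinyl esters. Retinol dehydrogenases such as RDH10 and DHRS9 oxidise retinol to retinaldehyde, reductases such as DHRS3 turn retinaldehyde back into retinol, and the ALDH1A enzymes oxidise it irreversibly to retinoic acid. CRABP1 and CRABP2 bind retinoic acid in the cytosol, the RAR and RXR receptors carry its effect on transcription, and the CYP26 enzymes degrade it. Retinoic acid is known for holding back squamous differentiation in epithelia.

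MCF10.AT1 is a preneoplastic human breast epithelial line, derived from MCF10A with an activated HRAS. The source names call its samples untreated, while the treatment text of the labels, the same for all 6 samples, describes rising fluvastatin doses. MCF10.AT1-R was selected from MCF10.AT1 in fluvastatin at doses that rose from 1 and 5 µM up to 20 µM. Both lines were grown in medium with horse serum, EGF, hydrocortisone and insulin, and the sources used here do not give whether MCF10.AT1-R is a clone, or whether fluvastatin was present when RNA was taken. Total RNA of each line was measured on 3 Clariom D arrays, named A01, A02 and A03 for MCF10.AT1 and B02, B03 and B04 for MCF10.AT1-R. The labels call the samples of a line biological replicates, without saying how their cultures were separated, and the array names carry no replicate number.

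A03 stood apart from the other arrays and was left out of the comparison, as in the study. Over all transcript probe sets its correlation with each of the other 5 arrays lay between 0.779 and 0.795, against 0.967 to 0.977 among those 5. All values below are the deposited log2 RMA values, and a log2 change is MCF10.AT1-R minus MCF10.AT1. A value was taken as above background when it exceeded the 95th percentile of the negative control probe sets on its array, which lay between 2.88 and 3.14 on the 5 arrays. All 8 breast epithelial markers looked up (KRT5, KRT14, KRT17, CDH1, EPCAM, TP63, KRT8 and KRT18) were above background on all 5 arrays.

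Of the 9 genes CRABP2 was higher and DHRS9 was lower in MCF10.AT1-R, 6 others did not pass the test, and ALDH1A2 was not tested. Of the 9 genes 8 were tested in limma after the filter on low and invariant probe sets, and 2 of these 8 passed an FDR of 5%. In the same test 1.2% of all probe sets passed, 0.758% higher and 0.447% lower in MCF10.AT1-R. No overlap between the lines was seen for 5 of the 9 genes, namely CRABP2, RDH10 and RDH11 (higher) and DHRS9 and DHRS3 (lower), against 23.3% of all transcript probe sets. The median log2 change of the 9 genes was 0.09, against 0.01 over all transcript probe sets.

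**Figure D1:**
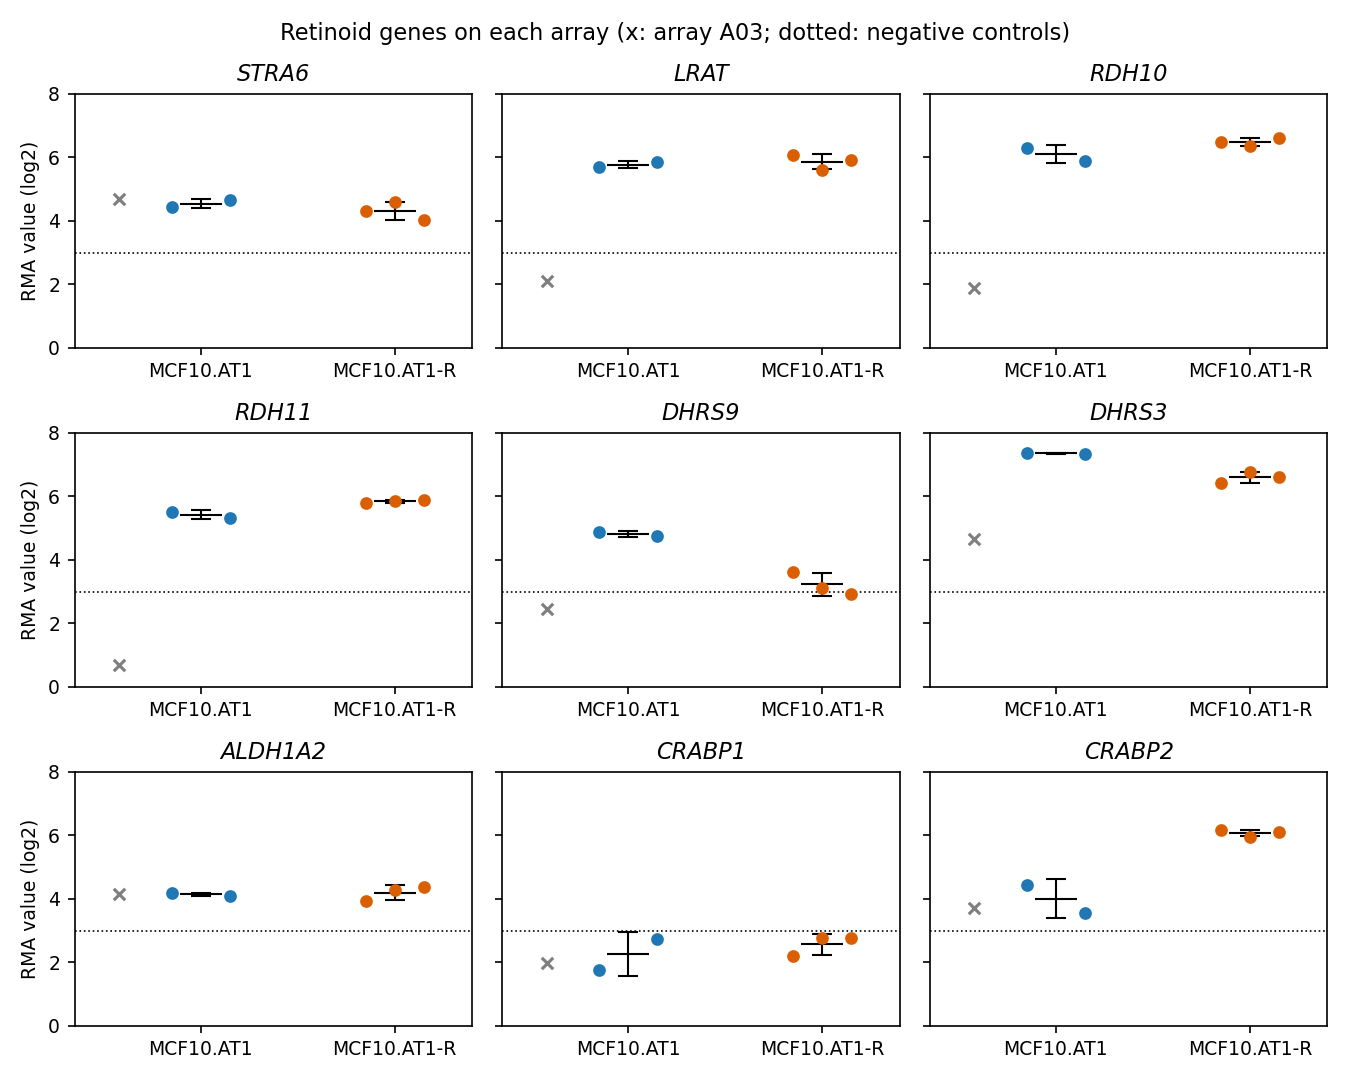
Deposited RMA value (log2) of each gene on every array, with MCF10.AT1 in blue, MCF10.AT1-R in orange, the mean and SD of each line in black, A03 as a grey cross, and the mean over the 5 arrays of the negative controls' 95th percentile (2.99) as a dotted line. The 3 MCF10.AT1-R arrays lie at 5.95 or above for CRABP2 and at 3.62 or below for DHRS9, apart from A01 and A02 in both.

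CRABP2, which carries retinoic acid to its receptor in the nucleus, showed the largest change of the 9 genes (probe set TC0100016018.hg.1). Its values were 4.44 on A01 and 3.56 on A02, and 6.15, 5.95 and 6.10 on B02, B03 and B04. The lines did not overlap, with MCF10.AT1-R the higher, and the spread in MCF10.AT1 (SD 0.62, n = 2) was wider than in MCF10.AT1-R (SD 0.10, n = 3). The mean rose from 4.0 to 6.07, a log2 change of 2.07 (standard error 0.31), or 4.19-fold, with an adjusted p of 1.98e-08 from limma. The change was 2.51 without A01 and 1.63 without A02. Each of these fits had a single MCF10.AT1 array, so the spread between A01 and A02 did not enter them. With the filter on low expression alone, where limma keeps more of each gene's own variance, the adjusted p was 0.0436. CRABP2 missed FDR 5% with A03 added as MCF10.AT1 (limma adjusted p = 0.0727) and with a floor at the negative controls (limma adjusted p = 0.231). Among all probe sets past FDR 5%, 67 rose by more than CRABP2. On A03, the array left out, CRABP2 read 3.69, within the range of the other MCF10.AT1 arrays. Its values on A02 and A03 lay near the background limits of these arrays, 3.03 and 3.15.

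The RefSeq promoter window of CRABP2, from 250 bases before the start of the gene to 50 after it, is shown because CRABP2 is a known retinoic acid target and showed the largest change.

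CRABP2, GRCh38.p14, chr1:156705735-156706034, minus strand: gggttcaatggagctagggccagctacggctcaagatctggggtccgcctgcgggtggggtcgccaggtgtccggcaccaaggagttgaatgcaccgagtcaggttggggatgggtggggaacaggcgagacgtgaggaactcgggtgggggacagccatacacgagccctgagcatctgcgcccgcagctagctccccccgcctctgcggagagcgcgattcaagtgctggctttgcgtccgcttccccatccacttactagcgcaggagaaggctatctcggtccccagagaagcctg

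No letters are in capitals, because neither of the hexamers AGGTCA and AGTTCA that retinoic acid receptors bind, on either strand, occurs in it. Over all RefSeq promoter windows AGGTCA was found in 13.8% and AGTTCA in 10.4%.

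CRABP1, the related binding protein, was not above background on any of the 5 arrays. Its values were 1.76 and 2.74 on A01 and A02, and 2.18, 2.75 and 2.75 on B02, B03 and B04. The arrays of the lines overlapped, and no fold is given since both lines were within the negative controls. FABP5, which also binds retinoic acid, has 2 probe sets. The brighter read 9.73 in MCF10.AT1 (SD 0.01, n = 2) against 9.52 in MCF10.AT1-R (SD 0.18, n = 3) and was removed as invariant, and the other read 8.91 against 8.72 and did not pass (limma adjusted p = 0.885). The names of the 2 probe sets, TC1100010987.hg.1 for the brighter and TC0800008080.hg.1 for the other, place these on different chromosomes. Both cannot lie at the same gene. The values are uncertain, since the probes may not separate FABP5 from near-identical copies.

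DHRS9, a short-chain dehydrogenase that oxidises retinol, was lower in MCF10.AT1-R (TC0200009905.hg.1). It read 4.88 on A01 and 4.73 on A02, and 3.62, 3.10 and 2.93 on B02, B03 and B04. Both MCF10.AT1 arrays lay above all 3 MCF10.AT1-R arrays, and B04 was not above background. The mean went from 4.81 ± 0.11 (SD, n = 2) to 3.22 ± 0.36 (SD, n = 3), and the log2 change of -1.59 (standard error 0.31), or 3.01-fold, had an adjusted p of 9.11e-05 from limma. Leaving out 1 of the 5 arrays at a time gave log2 changes of -1.79 to -1.45. Among the fits without 1 MCF10.AT1-R array, DHRS9 kept a limma adjusted p below 5%, the highest being 0.00422 without B04. With the filter on low expression alone or with no filter the log2 change was also -1.59 (standard error 0.24). DHRS9 no longer passed in these 2 settings (limma adjusted p = 0.078 and 0.0832). It also missed with A03 added as MCF10.AT1 (log2 change -0.80, limma adjusted p = 0.789) and with a floor at the negative controls (limma adjusted p = 0.234). On A03 it read 2.43, within the negative controls of that array.

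RefSeq gives 4 promoter windows for DHRS9, at its different starts. The one shown held 2 copies of TGAACT, which is AGTTCA read on the opposite strand, and these are in capitals.

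DHRS9, GRCh38.p14, chr2:169080857-169081156, plus strand: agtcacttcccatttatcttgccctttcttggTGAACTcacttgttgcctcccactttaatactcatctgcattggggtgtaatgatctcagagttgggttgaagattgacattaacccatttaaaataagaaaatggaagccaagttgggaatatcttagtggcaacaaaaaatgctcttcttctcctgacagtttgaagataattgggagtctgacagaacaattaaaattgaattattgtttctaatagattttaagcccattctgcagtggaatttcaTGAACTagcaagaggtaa

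The copies begin at positions -218 and 33 from the start. The other 3 windows of DHRS9 held neither hexamer, and which start these cells use was not tested.

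DHRS3, which reduces retinaldehyde to retinol and is a known target of retinoic acid, lay lower on all 3 MCF10.AT1-R arrays (TC0100012921.hg.1). Its values were 7.35 and 7.33 on A01 and A02, and 6.41, 6.76 and 6.59 on B02, B03 and B04. The replicates were close, with SDs of 0.01 (n = 2) and 0.17 (n = 3), and the lines did not overlap. The log2 change of -0.76 (95% interval -1.37 to -0.14) did not pass in limma (adjusted p = 0.373). The residual SD of DHRS3 was 0.14, while limma used a common SD of 0.34 for every probe set after the filter. When the variance was allowed to follow the expression level, DHRS3 passed (limma adjusted p = 0.00221), and the adjusted p ranged from 0.00221 to 0.968 over all alternatives. With A03 added as MCF10.AT1 the change turned to 0.14, since DHRS3 read 4.65 on A03.

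One of the 3 RefSeq windows of DHRS3 held TGACCT, which is AGGTCA read on the opposite strand. It is in capitals in the sequence shown, at position -171 from that start. The other windows of DHRS3, from 12616740 and from 12618161 on the same chromosome, held neither hexamer. Which start of DHRS3 these cells use was not tested.

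DHRS3, GRCh38.p14, chr1:12596564-12596863, minus strand: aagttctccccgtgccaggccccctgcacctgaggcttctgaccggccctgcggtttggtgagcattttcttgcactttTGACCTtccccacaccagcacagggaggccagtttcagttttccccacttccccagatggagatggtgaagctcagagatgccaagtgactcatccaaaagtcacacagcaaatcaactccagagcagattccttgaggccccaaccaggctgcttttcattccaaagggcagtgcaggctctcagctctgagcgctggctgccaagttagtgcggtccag

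RefSeq windows were matched for 8 of the 9 genes, 18 windows in all. AGGTCA was found in 3 of them, against 13.8% of all windows, and AGTTCA in 2, against 10.4%. The windows shown for DHRS9 and DHRS3 were those with a copy, and windows of STRA6 and ALDH1A2 also held copies. None of the 18 windows held a pair of these hexamers in the same orientation with 1, 2 or 5 bases between, an arrangement that at most 0.0484% of all windows held. The letters TCACNCCAC, a form of the sterol regulatory element, were not in the 18 windows and were in 1.13% of all windows. The hexamers are also the parts of the paired motifs, and both strands were read for each.

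RDH10 oxidises retinol in the first step towards retinoic acid. RDH10 (TC0800007957.hg.1) read 6.29 and 5.88 on A01 and A02, and 6.46, 6.36 and 6.60 on B02, B03 and B04. The lines did not overlap, but B03 lay close to A01. The log2 change of 0.39 (95% interval -0.22 to 1.00) did not pass (limma adjusted p = 0.818), and it was 0.59 without A01 and 0.18 without A02. RDH11, an enzyme of the same family that prefers NADPH and can reduce retinaldehyde, read 5.51 and 5.31 in MCF10.AT1 and 5.78, 5.83 and 5.87 in MCF10.AT1-R (TC1400010765.hg.1). Its arrays did not overlap either, and the replicates were close (SD 0.14, n = 2, and SD 0.05, n = 3). The log2 change of 0.42 (95% interval -0.19 to 1.03) did not pass (limma adjusted p = 0.80).

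The genes for uptake and storage showed no difference larger than the spread between arrays. STRA6, the receptor for retinol bound to RBP4, read 4.43 and 4.64 in MCF10.AT1 and 4.29, 4.60 and 4.01 in MCF10.AT1-R (TC1500010006.hg.1). The arrays overlapped, and the log2 change was -0.23 (95% interval -0.84 to 0.38, limma adjusted p = 0.859), with -0.38 without B03 and -0.09 without B04. LRAT read 5.68 and 5.85 in MCF10.AT1 and 6.07, 5.59 and 5.92 in MCF10.AT1-R (TC0400009068.hg.1). The lines overlapped here too, with a log2 change of 0.09 (95% interval -0.52 to 0.71, limma adjusted p = 0.946). It was -0.012 without B02, 0.23 without B03 and 1.32 with A03 added as MCF10.AT1.

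ALDH1A2, a retinaldehyde dehydrogenase, varied too little between arrays to pass the filter, so it has no adjusted p in the main comparison (TC1500009561.hg.1). It read 4.17 and 4.09 in MCF10.AT1 and 3.92, 4.26 and 4.38 in MCF10.AT1-R. The arrays overlapped, and limma without a filter gave a log2 change of 0.06 (95% interval -0.42 to 0.53). ALDH1A3, the family member with the highest mean here, read 4.58 and 4.53 in MCF10.AT1 and 5.40, 5.24 and 5.78 in MCF10.AT1-R. MCF10.AT1-R was the higher with no overlap, but the log2 change of 0.92 (standard error 0.31) did not pass (limma adjusted p = 0.154). With a variance trend it passed (limma adjusted p = 0.0188). The other probe set of ALDH1A3 had a log2 change of -0.08 from means of 2.13 and 2.04, both below 2.99, the mean over the 5 arrays of the negative controls' 95th percentile.

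**Figure D2:**
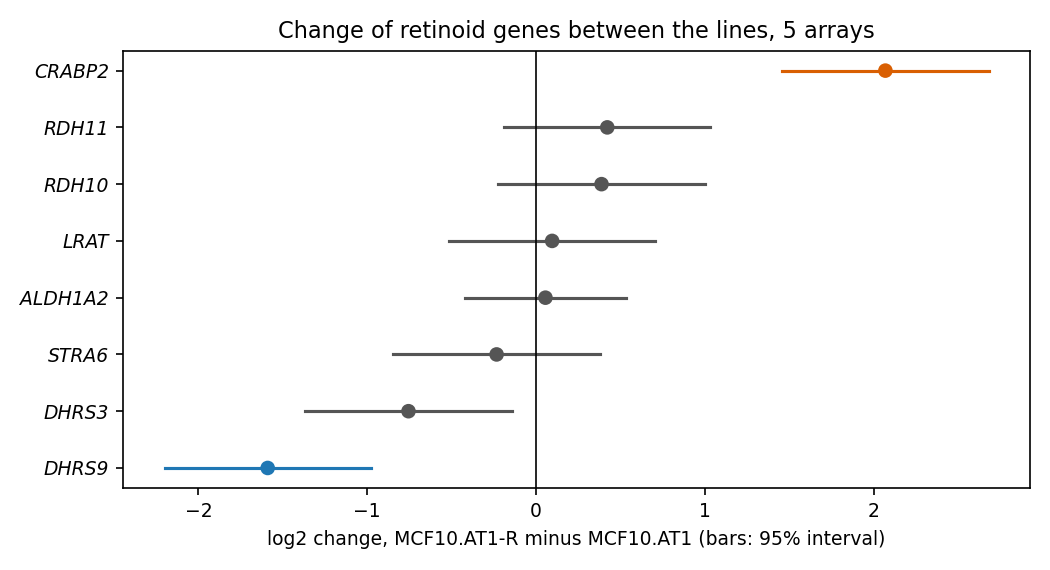
Log2 change (MCF10.AT1-R minus MCF10.AT1) of the 8 genes above background on at least 1 of the 5 arrays, with its 95% interval from limma, where orange and blue mark genes past FDR 5% that were higher or lower. CRABP2 lies at 2.07 and DHRS9 at -1.59, and the intervals of the others reach across 0 except that of DHRS3, which ends at -0.14.

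The 9 genes also differed in how they read on A03. RDH10, RDH11 and LRAT read 1.89, 0.67 and 2.09 there, and A03 minus the mean of A01 and A02 was -4.20, -4.74 and -3.67. These 3 genes were within the negative controls of A03. STRA6 read 4.67 and ALDH1A2 read 4.14 on A03, within 0.13 of the mean of A01 and A02.

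Beyond the 9 genes, 37 other genes of the retinoid pathway were looked up, and 36 had a probe set. After the filter 26 were tested, and 3 passed an FDR of 5%, against 1.2% of all probe sets tested. These were SDR16C5 (higher) and AKR1B10 and AKR1C3 (lower). SDR16C5, an epidermal retinol dehydrogenase, read 3.46 and 3.60 in MCF10.AT1 and 4.98, 5.03 and 5.03 in MCF10.AT1-R. The replicates lay close together and the lines far apart, and the change was 1.48 on the log2 scale (SE 0.31, limma adjusted p = 0.000465). SDR16C5 and DHRS9 were the 2 of 8 tested retinol dehydrogenases that passed, in opposite directions.

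Of the 6 genes listed here as retinaldehyde reductases 5 were tested and 2 passed, both lower in MCF10.AT1-R, against 0.447% of all probe sets. RDH11, which can reduce retinaldehyde, was counted with the retinol dehydrogenases instead (log2 change 0.42, limma adjusted p = 0.80). The counts and the median of the reductases therefore hold for this list alone. AKR1B10, an aldo-keto reductase that reduces retinaldehyde, read 5.16 and 5.13 in MCF10.AT1 and 3.59, 3.20 and 3.34 in MCF10.AT1-R. The lines did not overlap, and AKR1B10 changed by -1.76 on the log2 scale (SE 0.31, limma adjusted p = 6.02e-06). AKR1C3 read 9.55 and 9.53 in MCF10.AT1 and 7.14, 6.73 and 7.06 in MCF10.AT1-R, and changed by -2.56 on the log2 scale (limma adjusted p = 2.27e-13), though its probes may not separate it from near-identical AKR1C genes. Of the 6 genes of this list 4, among them DHRS3, were lower on every MCF10.AT1-R array than on A01 and A02, but another of the 4, RDH8, was within the negative controls on all 5 arrays. Over all transcript probe sets 11.1% were apart in this direction. The list's median log2 change was -0.83, RDH8 included.

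**Figure D3:**
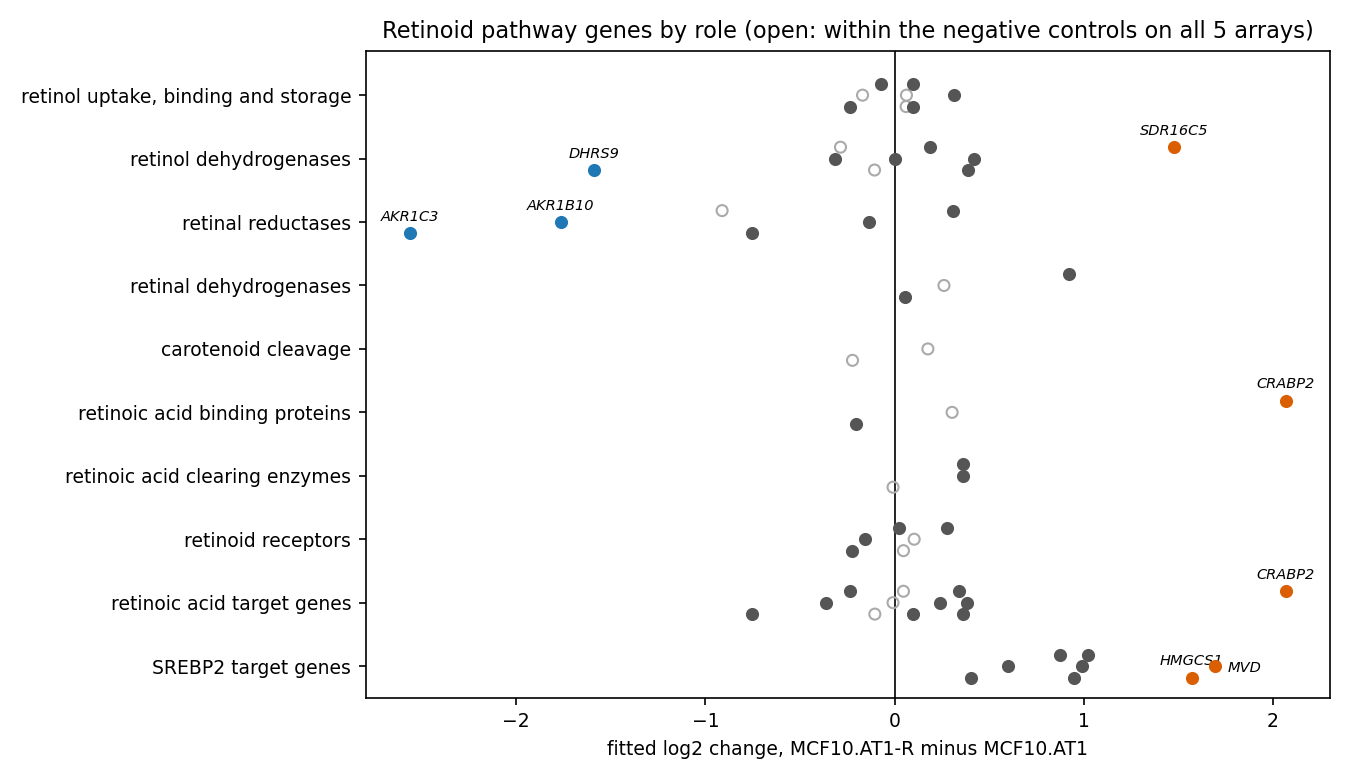
Fitted log2 change (MCF10.AT1-R minus MCF10.AT1) of each retinoid pathway gene by role, with SREBP2 target genes below for comparison, where orange and blue mark genes past FDR 5%, grey marks the others, and open circles mark genes within the negative controls on all 5 arrays. The genes past FDR 5% are CRABP2 and SDR16C5 above 0 and DHRS9, AKR1B10 and AKR1C3 below 0, with HMGCS1 and MVD among the SREBP2 targets.

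Uptake, receptor, clearing and carotenoid genes held none past FDR 5% in limma. Of the 6 tested genes of retinol uptake, binding and storage 0 passed, also at an unadjusted p under 0.05. DGAT1, which can esterify retinol, had the highest mean of that list and was removed as invariant. It was 7.15 in MCF10.AT1 (SD 0.045, n = 2) against 7.07 in MCF10.AT1-R (SD 0.13, n = 3). Of the retinoid receptors 3 were tested and 0 passed, also unadjusted. RXRA was 5.46 in MCF10.AT1 (SD 0.03, n = 2) against 5.73 in MCF10.AT1-R (SD 0.23, n = 3, limma adjusted p = 0.842). RXRB, with the highest mean of the receptors, was 6.92 (SD 0.15, n = 2) against 6.70 (SD 0.13, n = 3) and was removed as invariant. RARB, the receptor gene that retinoic acid itself induces, was within the negative controls on all 5 arrays, as was RXRG.

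The CYP26 genes, whose enzymes degrade retinoic acid, gave 2 tested genes and 0 calls, also unadjusted. CYP26B1 read 4.83 and 4.94 in MCF10.AT1 and 5.48, 5.09 and 5.16 in MCF10.AT1-R. The arrays did not overlap, and the log2 change of 0.36 did not pass (limma adjusted p = 0.828). CYP26C1 was above background on B02 and B04 alone, so no fold is given, and CYP26A1 on none of the 5 arrays. RARB, RXRG and CYP26A1 are named here after their values were seen. BCO1 and BCO2, which cleave carotenoids, were within the negative controls on all 5 arrays.

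Of 12 genes known as targets of retinoic acid, 10 were tested and 1 passed, CRABP2, against 1.2% of all probe sets tested. At an unadjusted limma p under 0.05 there were 2, CRABP2 and DHRS3. These lie on opposite sides, and the list's median log2 change was 0.07. The list shares CRABP2, DHRS3 and STRA6 with the 9 genes. Of 6 visual cycle genes of the eye 3 were within the negative controls on all 5 arrays, and 0 of 3 tested genes passed, also unadjusted. RBP3 was above background on A02 and B04 alone, so no fold is given. RGR, which was removed as invariant, averaged 4.73 (SD 0.14, n = 2) against 4.65 (SD 0.12, n = 3).

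For comparison within the same arrays, 8 SREBP2 target genes of sterol synthesis and uptake were read. All 8 lay higher on every MCF10.AT1-R array than on both MCF10.AT1 arrays, against 12.2% of all transcript probe sets, with a median log2 change of 0.97. Of these, HMGCS1 and MVD passed an FDR of 5%, while 0.758% of all probe sets passed as higher. Their log2 changes were 1.57 and 1.69 (adjusted p = 0.000121 and 1.82e-05 from limma). DHCR7, which had the highest mean over the 5 arrays, averaged 9.73 in MCF10.AT1 against 10.33 in MCF10.AT1-R and did not pass (limma adjusted p = 0.619). With the variance trend 7 of the 8 passed, against 2.68% of all probe sets, DHCR7 among them (limma adjusted p = 2.34e-12).

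Of 7 cornifying keratinocyte markers 5 were tested and 3 passed, all higher in MCF10.AT1-R, as CRABP2 and SDR16C5 were, against 0.758% of all probe sets. IVL, a cornified envelope protein, rose from 3.51 to 6.74, a log2 change of 3.23, and it had the highest mean of the list over the 5 arrays, though CDSN read higher in MCF10.AT1 (4.60). KRT1 changed by 1.10 and CDSN by 1.14 (adjusted p = 0.0366 and 0.0269 from limma). Both missed FDR 5% with the low-expression filter alone (limma adjusted p = 0.0966 and 0.199) and with no filter (limma adjusted p = 0.136 and 0.263), while IVL passed in both. The summed log2 level of the list was 21.86 and 21.93 on A01 and A02, and 27.28, 26.65 and 28.57 on B02, B03 and B04. KRT10 had a log2 change of 0.58 and did not pass (limma adjusted p = 0.648). FLG was within the negative controls on all 5 arrays, and LOR and TGM1 were above them on 1 array each, with overlapping lines, so no fold is given for them. Of the epithelial markers 6 of 8 passed, all higher, against the same 0.758%, with log2 changes of 4.08 for KRT17, 2.37 for KRT14, 1.74 for TP63, 1.71 for KRT5, 1.30 for CDH1 and 1.11 for KRT8. KRT8 missed with the low-expression filter alone (limma adjusted p = 0.0898) and with no filter (limma adjusted p = 0.126), and CDH1 with no filter (limma adjusted p = 0.0616). Their summed log2 level was 58.04 and 57.40 on A01 and A02, and 71.41, 71.22 and 72.34 on B02, B03 and B04, and KRT18 had the highest mean over the 5 arrays.

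Some markers of other cell types were lower in MCF10.AT1-R, as DHRS9 was. Of 5 fibroblast markers 1 was tested, DCN, which was lower by a log2 change of -2.15 (limma adjusted p = 3.88e-09). Of 4 immune and endothelial markers 2 were tested, and PECAM1 passed, lower by -1.12 (limma adjusted p = 0.0307). In the same test 0.447% of all probe sets passed as lower. PECAM1 missed with the low-expression filter alone (limma adjusted p = 0.123) and with no filter (limma adjusted p = 0.17). CD68, VWF and PTPRC of its list overlapped between the lines, with log2 changes of 0.14 for CD68 and -0.003 for VWF. The other 4 fibroblast markers overlapped between the lines, with log2 changes from -0.16 to 0.15. The summed log2 level of the fibroblast list was 25.03 and 26.13 on A01 and A02, and 23.81, 23.24 and 23.74 on B02, B03 and B04, with the highest mean for COL1A1, and PDGFRB was within the negative controls on all 5 arrays. That of the immune and endothelial list was 13.69 and 14.87 in MCF10.AT1 and 12.94, 13.998 and 13.46 in MCF10.AT1-R, with the highest mean for VWF and PTPRC within the negative controls on all 5 arrays. Of 3 adipocyte markers 1 was tested, PLIN1, which had the highest mean and did not pass (limma adjusted p = 0.0538). It was above background on A01 (4.53) and B04 (3.31) alone and read 2.67 on A02, and ADIPOQ and LEP were within the negative controls on all 5 arrays. The summed log2 level of that list was 8.02 and 5.75 on A01 and A02, and 6.54, 4.29 and 6.85 on B02, B03 and B04. The part of any of these markers in the retinoid values was not tested. In such cultures fewer cells of a type and less RNA per cell cannot be told apart.

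The gene symbols with the arrays most like CRABP2, by Euclidean distance over the 5 arrays with each gene centred on its mean, included RAB11FIP1, LOC647859, GUCY1A3 and ZBED2, at distances from 0.271 to 0.423. RAB11FIP1, a Rab11-binding protein of endosomal recycling, read 4.45 and 3.83 in MCF10.AT1 and 6.06, 6.08 and 6.14 in MCF10.AT1-R. Like CRABP2, it was lower on A02 than on A01 and close among the MCF10.AT1-R arrays, a likeness by which it was picked. Those most like DHRS9 were GABRE, S100A4, SERPINE2, NR2F1 and a gene the file names blawkleybu, at distances from 0.230 to 0.372. NR2F1, an orphan nuclear receptor, read 7.32 and 7.41 in MCF10.AT1 and 6.30, 5.48 and 5.73 in MCF10.AT1-R.

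The count of called genes among the 9 differed with the filter, with the variance model, with the floor at the negative controls and with A03 added. With the variance trend 3 of 8 tested passed, CRABP2, DHRS9 and DHRS3, against 2.68% of all probe sets. With the low-expression filter alone 1 of 9 passed, CRABP2, against 0.268%, and with that filter and the trend 3 of 9 passed, against 1.6%. Without any filter 1 of 9 passed, CRABP2, against 0.13%. With all 6 arrays 0 of 8 passed (1 at an unadjusted p under 0.05), against 0.0855%, and with a floor at the negative controls 0 of 8 passed (4 unadjusted), against 0.344%.

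**Figure D4:**
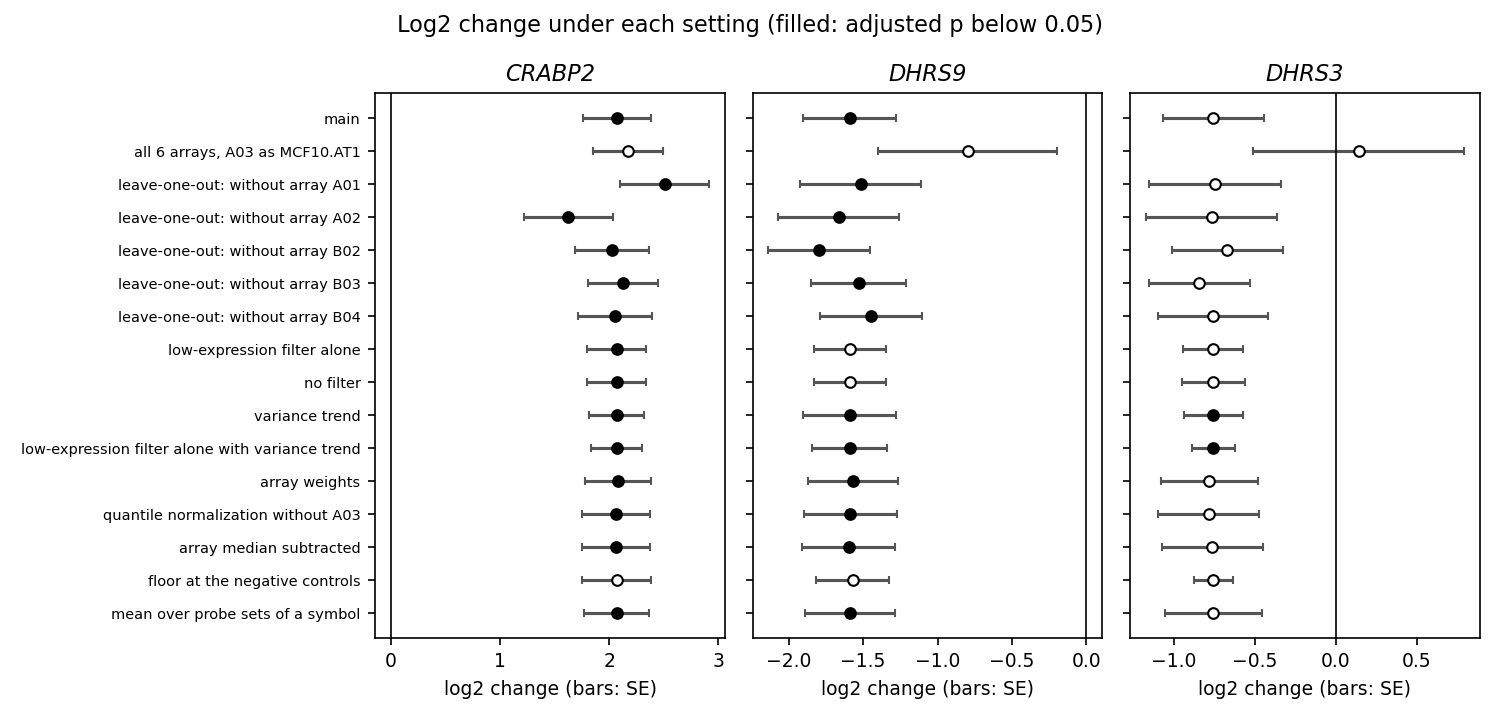
Log2 change (MCF10.AT1-R minus MCF10.AT1) of CRABP2, DHRS9 and DHRS3 under each setting, with its standard error, where filled points have an adjusted p below 5%. CRABP2 lies between 1.63 and 2.51 and DHRS9 between -1.79 and -0.80, and DHRS3 lies above 0 at 0.14 when A03 is counted as MCF10.AT1.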

How the data were processed

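Each line was measured with 3 Clariom D arrays hybridised with total RNA. The authors made and deposited log2 values by RMA (background correction, quantile normalization and probe summary) with the Bioconductor packages affy and oligo; the genome build is not given in the sources used here. The table holds 135750 transcript and 2995 control probe sets. Columns were assigned to lines by the array names, which the study's plot of principal components marks as sensitive or resistant. A03 was left out, as in the study, which leaves 2 arrays against 3, and this number limits the precision.

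Following the study's methods, low and invariant probe sets were removed (mean over the 5 arrays at or below the median of 1.88, or SD in the lowest 25%), which left 51457. Their linear model and moderated test were run in R 4.3.3 with limma (3.58.1, functions lmFit and eBayes), and p-values were adjusted by Benjamini and Hochberg over all of them. The limits are not the study's, whose text names none. After the filter limma used a common SD of 0.34. The fit was tested on simulated data, where it recovered the size of the changes made but the share of false calls was above the nominal FDR of 5%, so adjusted p-values after the SD filter may be too small. Genes removed by the filter took values from limma without it. Named genes were the 9 genes and, of each retinoid, visual cycle and SREBP2 list, those past FDR 5%, that with the highest mean and that with the largest change above background on at least 2 arrays. RARB, RXRG, CYP26A1, RDH8 and BCO2 fall outside this rule. Genes of the cell type marker lists were named after their values were seen. The 9 genes, the lists and the settings were chosen with earlier results of these data known. Promoter windows came from RefSeq (GRCh38.p14). Alternatives changed the arrays, filter, variance model, weights, normalization, probe set summary and a floor at the negative controls, with the probe sets tested kept as in the main comparison where the arrays changed. Protein sequences were not used here. Of the 5 gene symbols nearest to CRABP2, 1 is not reported here.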

Additional observations from a re-analysis of the deposited data

How the results depend on the processing

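No paired analysis was possible because the deposited columns carry no replicate number. Over the 15 alternatives CRABP2 kept its direction in all and passed FDR 5% in 13, with adjusted p from 1.1e-13 to 0.231, and DHRS9 kept its direction in all and passed in 11, with adjusted p from 3.26e-05 to 0.789. Leaving out 1 array at a time gave log2 changes of 1.63 to 2.51 for CRABP2, -1.79 to -1.45 for DHRS9 and -0.012 to 0.23 for LRAT, which was below 0 without B02. These fits called 280 to 575 probe sets (160 to 367 higher, 98 to 240 lower), against 620 (390 higher, 230 lower) over the 5 arrays, with 280 without A02 and 315 without A01. They called 2 of the 9 genes each time and 4 to 5 retinoid pathway genes, against 5; leaving 1 MCF10.AT1 array assumes that it varies like the MCF10.AT1-R arrays. With A03 added as MCF10.AT1, limma called 44 probe sets (43 higher, 1 lower), 0 of the 9 genes (1 at an unadjusted p under 0.05) and 0 retinoid pathway genes (3 unadjusted). CRABP2 was then 2.17 (adjusted p = 0.0727), DHRS9 -0.80 (adjusted p = 0.789) and DHRS3 reversed to 0.14; the cause was not tested. With the filter on low expression alone 182 probe sets passed (147 higher, 35 lower) and 1 of the 9 genes, with DHRS9 at -1.59 (adjusted p = 0.078). With no filter 177 passed (143 higher, 34 lower) and 1 of the 9 genes, with DHRS9 at -1.59 (adjusted p = 0.0832). With the variance trend 1377 passed (872 higher, 505 lower), and with the low-expression filter and the trend 1086 passed (764 higher, 322 lower). DHRS3 passed in both of these (adjusted p = 0.00221 and 0.0119). With a floor at the negative controls 177 passed (108 higher, 69 lower), 0 of the 9 genes (4 unadjusted) and 1 retinoid pathway gene, with CRABP2 at 2.07 (adjusted p = 0.231) and DHRS9 at -1.57 (adjusted p = 0.234); many probe sets then have no variance, and limma's prior degrees of freedom fell to 0.34. For RDH10, RDH11 and STRA6 no alternative changed the direction or the call, but the log2 changes ranged from 0.18 to 1.79, 0.32 to 2.00 and -0.38 to -0.09, the highest for RDH10 and RDH11 with A03 added.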
